A study of Mus musculus with 12 samples.

Results

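Growth factor receptors of the myeloid lineage and the growth factor Csf1 were followed in mouse dendritic cells (DC) maturing under poly(I:C), which is made in the laboratory to mimic viral double-stranded RNA. The genes were Csf1, Csf1r, Csf2ra, Csf2rb, Csf2rb2, Csf3r and Flt3. A probe set of the array was taken for a gene when its annotation named that gene and no other, which gave 14 of 45037 probe sets. There were 4 for Csf1, 3 for Csf1r, 2 each for Csf2ra and Csf2rb, and 1 each for Csf2rb2, Csf3r and Flt3. Of the 14, 13 passed a filter on low signal and were tested, and Flt3 did not pass. DC were grown for 6 days in GM-CSF from marrow of C57BL/6 mice and selected for CD11c, and total RNA was taken at 0 h and after 1, 3, 6, 12 and 24 h of poly(I:C). Each time was measured once in each of 2 replicate experiments (experiment 1 and experiment 2), so there were 12 arrays and n = 2 at every time. One female mouse gave all the cells of an experiment, and all groups shared the culture in GM-CSF. The labels give 10 ng/ml GM-CSF and 2.5 µg/ml poly(I:C), while the methods of the study give higher doses of both, and the labels give the age as 3 to 4 months in one field and 8 to 10 weeks in another. No array after 0 h held cells kept without poly(I:C), so an effect of poly(I:C) and an effect of time in culture cannot be told apart.

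The products of these genes carry the signals on which myeloid cells survive, divide and differentiate. M-CSF, the product of Csf1, binds the receptor tyrosine kinase encoded by Csf1r and sustains monocytes and macrophages. Flt3 is a related receptor tyrosine kinase that supports DC progenitors. GM-CSF binds the alpha subunit encoded by Csf2ra, and signal is passed by the common beta subunit encoded by Csf2rb, which the receptors for IL-3 and IL-5 share. The mouse carries a second beta subunit gene, Csf2rb2, whose product works with the IL-3 receptor. Csf3r encodes the receptor for G-CSF, best known in neutrophils. GM-CSF is also the factor in which these DC were grown.

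Signals were deposited as linear intensities, each array scaled to a trimmed mean of 500, and log2 ratios were taken after adding 16. The arrays were alike in RNA quality measures, with a 3' to 5' signal ratio of 0.728 to 0.819 for Gapdh and 1.11 to 1.21 for actin over the 12 arrays. Signals under 16 made up between 19.5% and 23.1% of each array. Of 13 DC markers, 11 passed the filter on low signal, and Cd209a and Flt3 did not. Itgax, which encodes CD11c, read 16176 to 24684 on the 12 arrays, the DC transcription factor gene Zbtb46 read 165 to 564, and the MHC class II gene H2-Ab1 read 7962 to 20350.1. Macrophage and monocyte markers were also present. Without Csf1r their summed signal at 0 h was 73642 and 77427 in experiments 1 and 2, beside 119617 and 96914 for the DC markers. Sums over different probe sets are no measure of how many cells of each kind there were. The study reports that nearly all cells were CD11c-positive after selection. Of 8 T and NK cell markers with a probe set, 0 passed the filter on low signal, and of 7 B cell markers 1 did. In RNA from a whole culture, fewer cells of a kind and less RNA per cell cannot be told apart.

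RefSeq promoters (build GRCm38.p6, 250 bases before to 50 bases after an annotated start) were matched for 5 of the 7 genes: Csf1, Csf2ra, Csf2rb2, Csf3r and Flt3. The starts used for Csf2ra and Csf3r lie inside the RefSeq gene, not at its outer end. The whole Csf3r window lies inside its gene. Positions are relative to the start used. The windows of the 3 genes whose probe sets passed a test are shown, 5′ to 3′ on the strand of the gene. Capitals mark matches to the 6 motifs searched on both strands, namely an ETS core (GAGGAA), an interferon-stimulated response element (GAAANNGAA), a STAT site (TTCNNNGAA), an AP-1 site (TGANTCA), a cyclic AMP response element (TGACGTCA) and a kappa B site (GGNNTTTCC). The ETS core was searched in this form only, and shorter GGAA runs, as in the Csf1 window, are not marked.
Csf1, chr3:107760420-107760719, minus strand: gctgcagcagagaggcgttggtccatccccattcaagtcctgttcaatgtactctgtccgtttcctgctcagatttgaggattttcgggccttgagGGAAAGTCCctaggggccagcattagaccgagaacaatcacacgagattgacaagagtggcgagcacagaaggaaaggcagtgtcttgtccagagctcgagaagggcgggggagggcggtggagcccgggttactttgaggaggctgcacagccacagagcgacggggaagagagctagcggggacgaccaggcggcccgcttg
Csf2ra, chr19:61228369-61228668, minus strand: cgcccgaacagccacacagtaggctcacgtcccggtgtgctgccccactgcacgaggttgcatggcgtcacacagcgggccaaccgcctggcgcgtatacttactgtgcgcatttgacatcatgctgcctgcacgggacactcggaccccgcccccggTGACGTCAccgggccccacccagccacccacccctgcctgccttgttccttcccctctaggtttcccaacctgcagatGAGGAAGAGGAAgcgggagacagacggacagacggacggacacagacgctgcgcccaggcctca
Csf3r, chr4:126024409-126024708, plus strand: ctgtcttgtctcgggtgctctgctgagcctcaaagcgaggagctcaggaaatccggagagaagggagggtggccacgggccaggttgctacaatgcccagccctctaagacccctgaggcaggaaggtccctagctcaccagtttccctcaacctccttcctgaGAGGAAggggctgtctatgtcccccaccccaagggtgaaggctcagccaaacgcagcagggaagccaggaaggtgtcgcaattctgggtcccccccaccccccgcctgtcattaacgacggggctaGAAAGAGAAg
The Csf1 window held 1 kappa B match, on the strand opposite to the gene with its first shown base at position -154 (the annotated start being 0), a motif found in 5.82% of 32851 promoters of the same length. The Csf2ra window held a cyclic AMP response element at -92 (in 1.79% of promoters) and 2 ETS cores at -14 and -8. The Csf3r window held 1 ETS core at -86 and, past the start used, an interferon-stimulated response element at 40. ETS cores stood in 28.3% of promoters and interferon-stimulated response elements in 8.56%. The Csf2rb2 window, not printed, held 2 ETS cores and 1 STAT site (in 8.3% of promoters), and the Flt3 window held none of the 6 motifs. No 2 matches overlapped in these windows. The AP-1 site (in 7.81% of promoters) was in none of the 5 windows. A match is a run of letters and no measure of binding.

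Few of these signals passed a test at a single time, and at 24 h several went opposite ways in the experiments. The receptor genes Csf1r, Csf2rb and Csf2rb2 passed no test at any time. Csf3r rose at 12 h, and 1 of the 2 Csf2ra probe sets fell at 12 and 24 h. At 1, 3 and 6 h, 0 of the 13 probe sets tested were called in either direction, while 0.0533%, 1.01% and 3.61% of all 22519 probe sets tested were called higher and 0%, 0.0444% and 1.91% lower. At an unadjusted p under 0.05, 0 of the 13 passed at 1 h, Csf3r alone at 3 h, and Csf3r with 3 of the 4 Csf1 probe sets, all upward, at 6 h. At 12 h, 1 of 13 was higher and 1 of 13 lower, beside 9.16% and 18.4% of all probe sets. At 24 h, 0 of 13 were higher and 1 of 13 lower, beside 9.09% and 17.2%, and at an unadjusted p under 0.05 the numbers were 3 and 2. Between 24 h and 12 h, 0 of 13 differed, beside 1.88% higher and 2.23% lower, and Csf1 probe set 1448914_a_at alone had an unadjusted p under 0.05. The share of all probe sets at an unadjusted p under 0.05 was not counted. The unadjusted numbers therefore cannot be set against it, and nothing is drawn from them. Calls are from limma on all 12 arrays with the experiment as a term, at a Benjamini-Hochberg adjusted p under 0.05. The F test over all times passed 3 of 13 probe sets, a share near the 28.3% of all. A fitted change of 2-fold or more at 12 h was seen for 1 of 13 probe sets, beside 21.3% of all, and at 24 h for 1 of 13, beside 20.4%. The median fitted log2 change of the 13 was 0.09, 0.11, 0.21, 0.16 and 0.24 at 1, 3, 6, 12 and 24 h, beside -0.02, -0.06, -0.16, -0.22 and -0.18 over all probe sets tested. Several of the 13 measure the same gene, so they are not 13 independent genes.

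**Figure D1:**
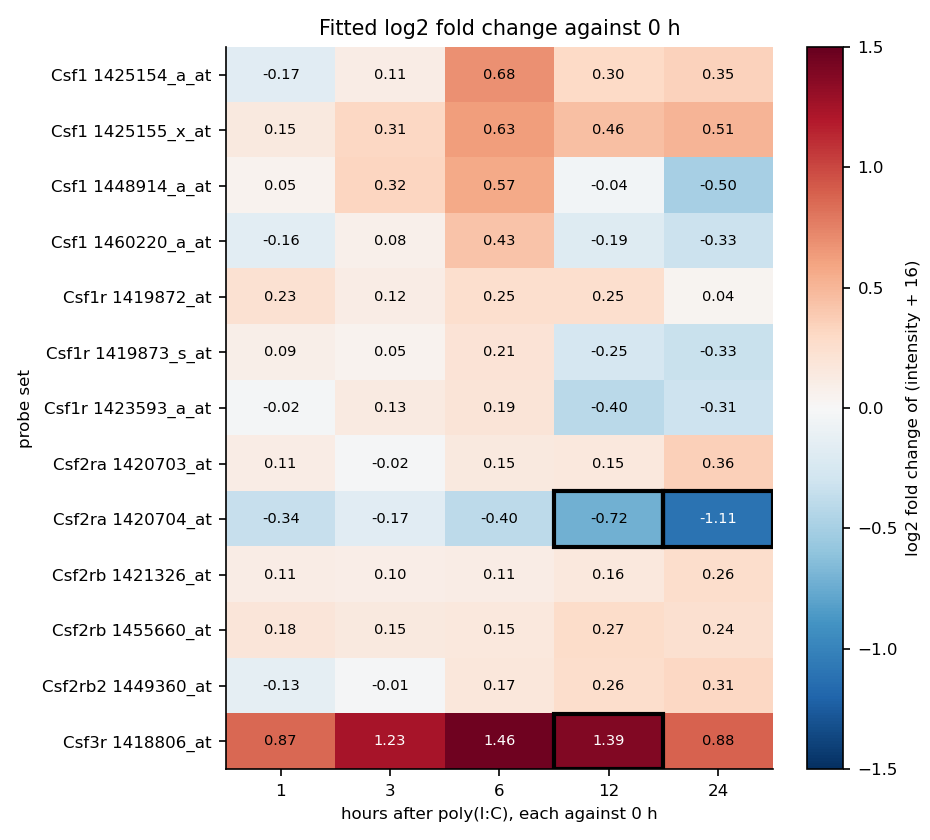
Fitted log2 fold change of (intensity + 16) of the 13 tested probe sets (rows) at 1, 3, 6, 12 and 24 h against 0 h (columns), from 12 arrays. Black frames mark an adjusted p under 0.05. The frames lie on Csf3r at 12 h and on Csf2ra 1420704_at at 12 and 24 h, and the 4 Csf1 rows are at 0.43 to 0.68 at 6 h.

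At 6 h the signals lay above 0 h more often than they passed a test. At 6 h, both arrays were above both 0 h arrays for 9 of 13 probe sets, which belong to 4 genes (Csf1, Csf1r, Csf2ra and Csf3r), and this held for 15.0% of all probe sets tested. The number was 9 with the arrays centred on their medians and 7 with quantile normalization, where 17.5% and 18.4% of all probe sets did so. At 1, 3, 12 and 24 h the same held for 1, 2, 6 and 3 of 13, beside 8.79%, 13.2%, 18.6% and 18.4% of all. Both arrays were below both 0 h arrays for 1 of 13 at 1 h (beside 12.3% of all), 0 at 3 h (19.8%), 0 at 6 h (31.4%), 0 at 12 h (37.1%) and 2 at 24 h (32.1%). Quantile normalization changed the 1 h numbers to 0 above and 3 below (beside 9.1% and 11.3% of all). The 3 h numbers became 6 above and 0 below (14.0% and 17.4%), and the 12 h numbers 3 above and 2 below (23.7% and 30.7%). Centring left 1 above and 2 below at 1 h (6.6% and 10.6%) and 1 and 1 at 3 h (10.0% and 26.2%). At 24 h both scalings left 0 below, beside 26.3% of all after centring and 27.3% after quantile normalization. Above 0 h at 24 h were 6 after centring and 3 after quantile normalization, beside 23.1% of all in each.

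Csf1, the gene for M-CSF, gave its highest mean signal at 6 h on all 4 probe sets. On 1425154_a_at the signal in time order from 0 to 24 h was 746, 684, 723, 1096, 827 and 864 in experiment 1. In experiment 2 it was 651, 554, 788, 1160.1, 899 and 919.6. Both 6 h arrays were above the arrays of every other time, and the 12 and 24 h arrays were above those of 0 h. The mean was 1128 ± 45.6 at 6 h and 698 ± 67.1 at 0 h (SD, n = 2 each), a fitted log2 difference of 0.68 (SE 0.19, adjusted p = 0.0663). This probe set passed the F test (adjusted p = 0.0478), which says that some time differed, but not the test at any single time. In order of the means, 6 h stood clear of 24 h, 24 h and 12 h overlapped, 12 h stood clear of 3 h, and 3, 0 and 1 h overlapped with their neighbours.

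On the other pair of brighter Csf1 probe sets the fitted difference at 24 h was below 0 and did not pass the test of that time. On 1448914_a_at the signal was 1436, 1323, 1649, 1752, 1449 and 1020.5 in time order from 0 to 24 h in experiment 1. Experiment 2 gave 1036, 1212, 1418, 1892, 975 and 717. The 6 h arrays were above all others and the 24 h arrays below both 0 h arrays. The fitted log2 difference was 0.57 at 6 h (SE 0.20, adjusted p = 0.138) and -0.50 at 24 h (SE 0.20, adjusted p = 0.0919), and the F test passed (adjusted p = 0.0266). On 1460220_a_at, the brightest of the 4, the signal was 2773, 2648, 2880.3, 3315, 2883 and 2898 in experiment 1. Experiment 2 gave 2627, 2214, 2818, 4013, 1931 and 1589. Both experiments were highest at 6 h, but at 24 h the array of experiment 2 was the lowest of the 12 while that of experiment 1 was above both 0 h arrays. The differences here were 0.43 at 6 h (SE 0.25, adjusted p = 0.358) and -0.33 at 24 h (SE 0.25, adjusted p = 0.364).

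The fourth Csf1 probe set, 1425155_x_at, carries the suffix that marks probes similar to unrelated sequence. It read 507, 450.4, 553, 621, 605 and 559.9 in experiment 1 and 353, 495, 508, 706, 569.8 and 666 in experiment 2. The arrays of 3, 6, 12 and 24 h were all above those of 0 h. The fitted difference was 0.63 at 6 h (SE 0.22, adjusted p = 0.143) and 0.51 at 24 h (SE 0.22, adjusted p = 0.119). The 4 probe sets therefore had positive fitted differences at 6 h and split at 24 h, with 2 above 0 h and 2 below. The 6 h value of 1425154_a_at passed with a filter at a mean signal of 200 (adjusted p = 0.0468), with quantile normalization (0.78, adjusted p = 0.0366) and with only the 4 arrays compared (adjusted p = 0.0266). Without the 24 h array of experiment 1, 3 Csf1 probe sets passed at 6 h, among them 1425154_a_at (adjusted p = 0.0177), and without that of experiment 2, 2 passed. The 24 h values also turned on the 24 h array of experiment 1. Without it they were -0.63 on 1448914_a_at, -0.69 on 1460220_a_at and 0.67 on 1425155_x_at, with 1 array left at 24 h.

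Csf1r, the M-CSF receptor, gave among the brightest signals on every array, between percentile 96.0 and 99.8, and passed no test at any time. On 1419872_at the signal was 22493, 23948, 23785, 26171, 29414 and 27019 in time order from 0 to 24 h in experiment 1. Experiment 2 gave 25095, 32347, 27841, 30532, 27249 and 22071. The 6 and 12 h arrays were above those of 0 h, and the neighbours in the order of the means all overlapped. The fitted differences ran between 0.04 at 24 h and 0.25 at 6 and 12 h, with an SE of 0.17.

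The other Csf1r probe sets parted between the experiments from 12 h on. On 1419873_s_at, whose suffix marks probes shared by several transcripts, experiment 1 read 15446, 15176, 16342, 17893, 16072 and 17944. Experiment 2 read 14960, 17267, 15224, 17177, 10135 and 8129.9. On 1423593_a_at experiment 1 read 9086, 8977, 11392, 10864, 9288 and 11149. Experiment 2 read 9769.6, 9559, 9387, 10624, 5460.5 and 5157. In experiment 2 the 12 and 24 h signals were the lowest of the series on both probe sets, and in experiment 1 the 24 h signals were above that experiment's 0 h signals. The log2 ratio at 24 h was 0.22 in experiment 1 and -0.88 in experiment 2 on 1419873_s_at, and 0.29 and -0.92 on 1423593_a_at. The pooled differences at 24 h were -0.33 (SE 0.27, adjusted p = 0.412) and -0.31 (SE 0.28, adjusted p = 0.447). Without the 24 h array of experiment 1 these became -0.83 and -0.78. That fit has 1 array left at 24 h, the array of experiment 2, which is assumed to vary like the arrays of the other times.

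**Figure D2:**
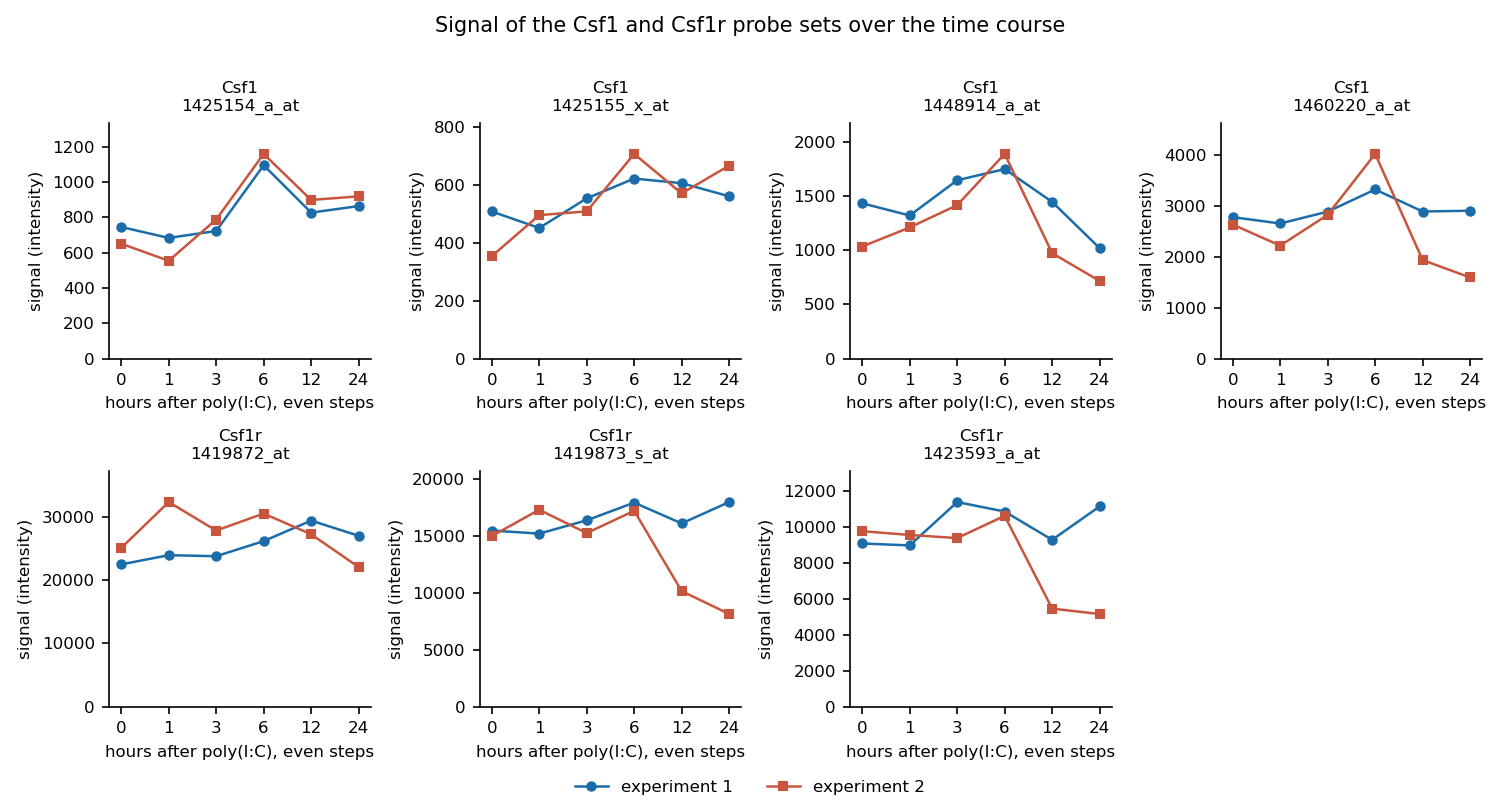
Signal (linear intensity, own scale from 0 in each panel) of the 4 Csf1 and 3 Csf1r probe sets against hours after poly(I:C) in even steps, with 1 line per experiment and 1 array per point. The Csf1 lines peak at 6 h in both experiments on all 4 panels, and the Csf1r lines of 1419873_s_at and 1423593_a_at separate at 12 and 24 h.

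Flt3, the receptor for Flt3 ligand on DC progenitors, read 29.1, 9.32, 22.2, 32.7, 18.4 and 89.9 in time order from 0 to 24 h in experiment 1. Experiment 2 gave 29.6, 76.3, 29.2, 75.7, 40.7 and 27.5. The values lay between percentile 13.3 and 53.9 of their arrays, had no order of times in common between the experiments, and did not pass the filter on low signal, so no test was made. With no filter, the fitted difference ran between -0.13 at 3 h and 0.58 at 24 h with an SE of 0.64.

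Csf2ra, the ligand-binding subunit of the GM-CSF receptor, gave opposite patterns on its 2 probe sets. On 1420703_at, near the top of the range on every array, the signal was 10864, 12294, 10969, 12228, 12051 and 13908 in time order from 0 to 24 h in experiment 1. In experiment 2 it was 10590.2, 10950.2, 10265, 11605, 11831 and 13652. Both 24 h arrays were above all the others, and the mean was 13780.3 ± 181 at 24 h and 10727 ± 194 at 0 h (SD, n = 2 each). The fitted log2 difference was 0.36 (SE 0.12, adjusted p = 0.0557), with ratios of 0.36 in experiment 1 and 0.37 in experiment 2, and it missed the threshold. With quantile normalization the ratios were 0.27 and -0.01. The 24 h difference passed with the arrays centred on their medians (0.49, adjusted p = 0.0362) and with a filter at a mean signal of 200 (adjusted p = 0.0397). Without the 24 h array of experiment 1 it was 0.39, with 1 array left at 24 h.

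The dimmer Csf2ra probe set, 1420704_at, fell at 12 and 24 h. Its signal was 705, 733, 653, 619, 495 and 361 in time order from 0 to 24 h in experiment 1. Experiment 2 gave 374, 218, 316, 239, 188 and 145. The signal of experiment 1 was above that of experiment 2 at every time, and within each experiment 24 h was the lowest. The fitted log2 difference was -0.72 at 12 h (SE 0.23, adjusted p = 0.0450) and -1.11 at 24 h (SE 0.23, adjusted p = 0.00689). At 24 h the ratio was -0.94 in experiment 1 and -1.28 in experiment 2. The F test passed (adjusted p = 0.0355). Both calls need the experiment as a term: without it the adjusted p was 0.595 at 12 h and 0.385 at 24 h. The 24 h call was also lost without the 0 h array of experiment 2 (-0.90, adjusted p = 0.0885), and the 12 h call without any 1 of the 8 arrays of 0, 3, 6 and 12 h (adjusted p 0.0674 to 0.307). The 12 h call was lost as well with centred arrays (adjusted p = 0.0718), with quantile normalization (-0.42, adjusted p = 0.195) and with no filter (adjusted p = 0.0849). The files do not say which part of the transcript each probe set reads, and the signals of the 2 probe sets correlated at r = -0.84 over the 12 arrays within experiments.

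Csf2rb, the common beta subunit, had signals near the top of every array and no call. On 1421326_at experiment 1 read 12915, 13258, 13801, 12919.5, 14253 and 19090.3 in time order from 0 to 24 h. Experiment 2 read 14433, 16364, 15514, 16876, 16369.5 and 14084. On 1455660_at experiment 1 read 22629, 24015, 24304, 23774, 26477 and 31658. Experiment 2 read 27117, 32803, 31066, 31964, 33747 and 26894. In experiment 1 the 24 h signal was the highest on both probe sets, and in experiment 2 it was the lowest. The arrays of every later time overlapped with those of 0 h. The fitted differences at 24 h were 0.26 (SE 0.19, adjusted p = 0.334) and 0.24 (SE 0.17, adjusted p = 0.341).

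Csf2rb2, the beta subunit gene that the mouse has beside Csf2rb, also parted between the experiments at 24 h. It read 12048, 11073, 12379, 12765, 15687 and 21662 in experiment 1 and 12882, 11672, 12329.5, 15356, 14185 and 11056 in experiment 2. The 12 h arrays were above both 0 h arrays, and at 24 h experiment 1 had its highest signal and experiment 2 its lowest. The fitted difference was 0.31 (SE 0.25, adjusted p = 0.393), with log2 ratios of 0.85 in experiment 1 and -0.22 in experiment 2. Without the 24 h array of experiment 2, the 24 h difference was 0.60 and 0.54 for Csf2rb and 0.83 for Csf2rb2. Between 24 h and 12 h it was then 0.44 on 1421326_at and 0.57 for Csf2rb2. That fit has 1 array at 24 h, the array of experiment 1. Without either 24 h array, 1455660_at was called higher at 12 h (0.27, adjusted p = 0.0431). RefSeq places no other protein-coding gene between Csf2rb2 and Csf2rb, and these paralogs are close in sequence, so their signals may not be separate. A probe set annotated to both, 1450200_s_at, was not counted among the 14. Its signal was 7382, 8649, 8586, 10796, 9954 and 14623 in experiment 1. Experiment 2 gave 8922, 8333, 9703, 12061, 9855 and 6904, with 24 h again the highest in experiment 1 and the lowest in experiment 2.

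Csf3r, the G-CSF receptor, rose at 12 h from a low signal. It read 120.1, 155, 234, 238, 186 and 133 in time order from 0 to 24 h in experiment 1. In experiment 2 it read 25.4, 93.6, 108, 151, 174 and 112. Both arrays of 6 and of 12 h were above both of 0 h, while those of 1, 3 and 24 h overlapped with 0 h. The mean was 180.3 ± 8.46 at 12 h and 72.7 ± 66.9 at 0 h (SD, n = 2 each). The fitted log2 difference was 1.39 at 12 h (SE 0.39, adjusted p = 0.0252), with ratios of 0.57 in experiment 1 and 2.20 in experiment 2. At 6 h it was 1.46 (SE 0.39, adjusted p = 0.0617), and at 3 and 24 h 1.23 and 0.88 (adjusted p = 0.363 and 0.129). Csf3r did not pass the F test over all times (adjusted p = 0.0962). The 0 h array of experiment 2, at percentile 27.5 of that array, was the lowest of the 12, and without it the 12 h value was 0.79 (adjusted p = 0.241). It was also lost without the 12 h array of experiment 2 (1.01, adjusted p = 0.193), with no filter (adjusted p = 0.0547) and without the experiment as a term (adjusted p = 0.144). The 6 h value was called without the 24 h array of experiment 1 (adjusted p = 0.0251) or of experiment 2 (adjusted p = 0.0247) and without the 0 h array of experiment 1 (2.06, adjusted p = 0.0495), which also gave a call at 24 h (1.48, adjusted p = 0.0494).

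Neutrophil markers were read beside Csf3r. Of 13 other genes of that list, 11 had a probe set and 5 were tested. At 12 h, 1 of the 5 fell (Mmp9, a gelatinase) and none of them rose, and at 24 h Mmp8, a collagenase, rose by 0.45 while Mmp9 fell by 1.43. The Mmp8 call and the Mmp9 call at 12 h were lost without the experiment as a term (adjusted p = 0.527 and 0.139). The granule genes Elane, Mpo, Ltf and Camp and the receptor gene Cxcr2 did not pass the filter and read 2.94 to 104 on the 12 arrays. Ngp and Lcn2, also granule genes, passed the filter and were not called at any time against 0 h. The summed signal of the list, most of it Mmp8, was 24101 and 40021 at 12 h in experiments 1 and 2, against 22812 and 30345 at 0 h. The part of other cells in the Csf3r signal was not tested.

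**Figure D3:**
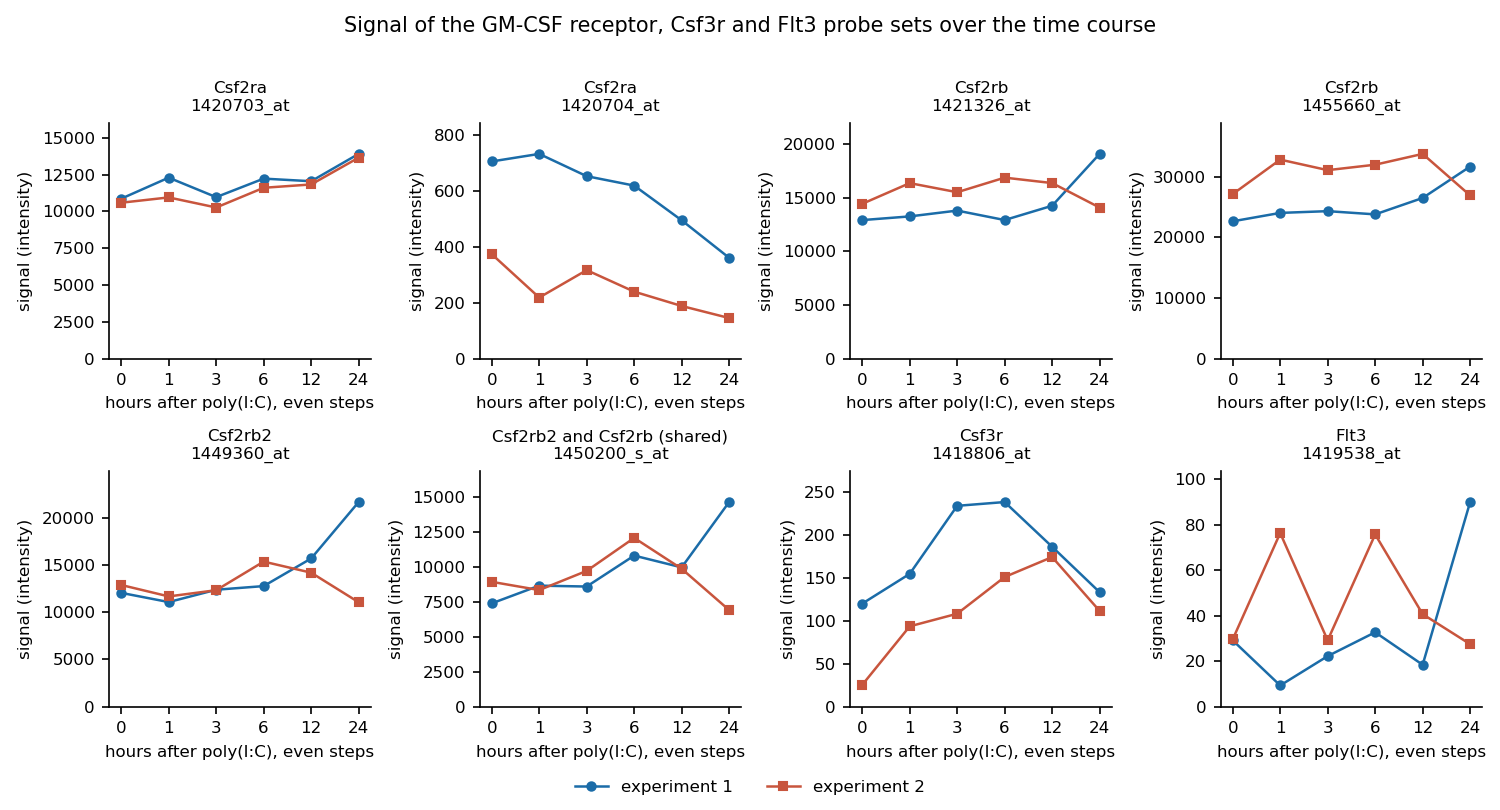
Signal (linear intensity, own scale from 0 in each panel) of the Csf2ra, Csf2rb, Csf2rb2, Csf3r and Flt3 probe sets and of the probe set shared by Csf2rb2 and Csf2rb against hours after poly(I:C) in even steps, with 1 line per experiment and 1 array per point. The lines of both Csf2rb probe sets cross between 12 and 24 h and experiment 1 is above experiment 2 for Csf2rb2 at 12 and 24 h, the 2 Csf2ra panels run in opposite directions, and Csf3r is above its 0 h signal in both experiments at every later time.

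Csf2ra and 3 Csf1 probe sets met both limits set on the likeness of the replicate experiments, and the other probe sets did not. Likeness was measured by the Euclidean distance (at most 1.4) and the Pearson correlation (at least 0.76) between the experiments, over the log2 ratios at 3, 6, 12 and 24 h. Within both limits were 5 of the 13 tested probe sets, beside 30.2% of all probe sets tested. They were Csf1 1425154_a_at (distance 0.59, r = 1.00), 1448914_a_at (0.64, r = 0.93) and 1460220_a_at (0.99, r = 0.80) and Csf2ra 1420703_at (0.07, r = 0.99) and 1420704_at (0.71, r = 0.95). The distance limit alone was met by 11 of 13, beside 70.5%, and the correlation limit alone by 5 of 13, beside 36.6%. The correlation was below 0 for Csf1r 1419872_at (-0.22) and 1419873_s_at (-0.04), both Csf2rb probe sets (-0.93 and -0.77) and Csf2rb2 (-0.65). A correlation over 4 times is a description, and where the ratios are small it rests on small differences.

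At 24 h, 7 of 13 probe sets had ratios of opposite sign in the experiments, beside 32.3% of all probe sets tested. They were the 3 of Csf1r, the 2 of Csf2rb, Csf2rb2 and Csf1 1460220_a_at, and in all 7 the ratio was above 0 in experiment 1 and below 0 in experiment 2, by as little as -0.04 and -0.01 for the Csf2rb probe sets. With the arrays centred on their medians it was 5 of 13 (33.6% of all), as both Csf2rb probe sets were then above 0 in experiment 2 (0.07 and 0.10). With quantile normalization it was again 7 (32.7% of all), with Csf2ra 1420703_at in place of Csf1 1460220_a_at. At 1, 3, 6 and 12 h it was 4, 4, 0 and 4 of 13, beside 47.8%, 34.7%, 28.1% and 23.8%. Centring gave 7, 3, 0 and 4 at these times, beside 56.2%, 31.1%, 30.4% and 24.8% of all. Quantile normalization gave 6, 3, 2 and 3, beside 48.1%, 35.8%, 29.8% and 25.2%. The experiment 1 ratio less the experiment 2 ratio at 24 h was 1.07 for Csf2rb2, 1.09 and 1.21 for Csf1r 1419873_s_at and 1423593_a_at, and -1.49 for Csf3r, while its median over all probe sets tested was 0.08. A smaller difference than that of Csf2rb2 was found for 78.4% of all probe sets at 24 h, and a smaller one than that of Csf3r for 90.1%. Each experiment has 1 array per time, so whether the course differs between the experiments could not be tested, and mouse, culture, hybridization and experiment cannot be told apart.

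**Figure D4:**
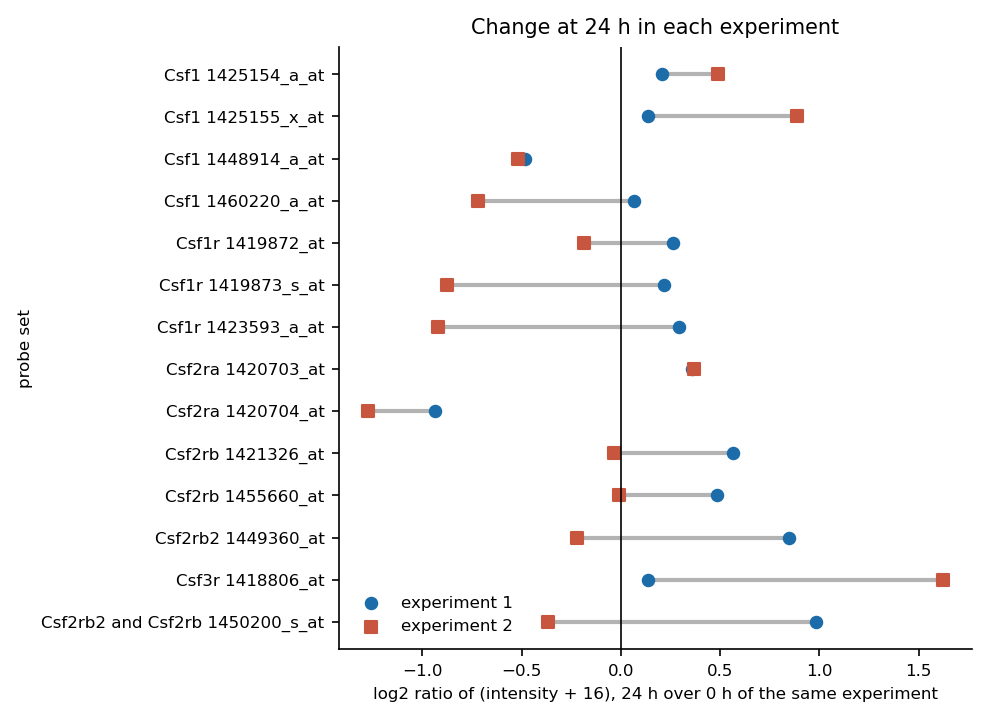
Log2 ratio of (intensity + 16) at 24 h over 0 h in experiment 1 (circles) and experiment 2 (squares) for the 13 tested probe sets and, in the bottom row, the probe set shared by Csf2rb2 and Csf2rb, with 1 array at each time in each experiment. Grey bars join the experiments. On this scaling the bars of Csf1r, Csf2rb, Csf2rb2 and Csf1 1460220_a_at cross 0 and those of Csf2ra do not, while those of Csf2rb end at 0.07 and 0.10 with centred arrays and that of Csf2ra 1420703_at at -0.01 with quantile normalization.

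Signals of the same gene were alike in some pairs and not in others. After the mean of each experiment was taken off, the 12 arrays gave r = 0.94 for the 2 Csf2rb probe sets, 0.95 for Csf1r 1419873_s_at and 1423593_a_at, and 0.85 for Csf1 1448914_a_at and 1460220_a_at, but 0.23 for Csf1 1425154_a_at and 1448914_a_at. Between genes, the highest values were r = 0.88 for Csf2rb 1421326_at with Csf2rb2 and 0.82 for Csf1 1460220_a_at with Csf1r 1423593_a_at. The points share arrays and their scaling, so these are descriptions. The genes with the courses most like the brightest probe set of each member, over the same 12 arrays, were Jag1 (r = 0.89), Luc7l3 and Camkk2 for Csf1 and Prr29 (r = 0.95), Nfe2l2 and Abca1 for Csf1r. For Csf2ra they were Osm (r = 0.94), Spa17 and Tceanc2, and for Csf2rb 4930474N05Rik (r = 0.91), Pramel12 and Atp13a2. For Csf2rb2 they were Tmbim6 (r = 0.97), Spty2d1 and Flii, and for Csf3r Mmadhc (r = 0.93), Leng9 and Klhdc10.

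Genes that work with these receptors were called in both directions from 6 h on. Of 74 other pathway genes tested, in 6 lists with 1 probe set per gene, 18 were higher and 10 lower at 12 h, beside 10.4% higher and 20.2% lower among all 10999 genes. At 24 h, 13 were higher and 12 lower, beside 11.3% and 16.8%. Earlier calls were few, with 5 higher and 1 lower at 6 h (beside 4.25% and 2.25% of all genes). At 3 h 1 was higher (1.25%) with 0 lower (0.0364%), and at 1 h none was called (0.0818% and 0%). Without the experiment as a term, the 12 h count was 6 higher with 2 lower, beside 5.58% and 9.74% of all genes. The 24 h count was then 5 higher with 6 lower, beside 5.16% and 7.32%. With the arrays centred on their medians the numbers at 24 h were 17 higher and 6 lower, beside 13.0% and 11.4%.

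Of 7 genes for myeloid growth factors and related ligands, 1 was tested. It was Kitl, the gene for stem cell factor, whose receptor Kit is not among the 7 genes. Kitl rose at 12 h by 1.85 on the log2 scale (SE 0.57, adjusted p = 0.0362), and read 427 and 314 at 12 h in experiments 1 and 2, against 46.2 and 164 at 0 h. The genes for GM-CSF (Csf2), G-CSF (Csf3), IL-34, IL-3 and IL-5 did not pass the filter on low signal, and Csf2 read 3.27 to 12.1 on the 12 arrays. Of 5 related receptors tested, 0 were higher and 2 lower at 12 h, and 0 were called at 24 h. Il6ra, the IL-6 receptor, fell by 1.27 (SE 0.33, adjusted p = 0.0186), and Il6st, its signalling partner gp130, fell by 0.99 (SE 0.25, adjusted p = 0.0143). Without the experiment as a term Kitl, Il6ra and Il6st were not called (adjusted p = 0.0717, 0.0649 and 0.183).

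In the JAK-STAT list, 7 of 16 genes were higher at 12 h with 0 lower, and by 24 h there were 5 higher against 1 lower. Socs1, a feedback inhibitor of JAK kinases, was 2.69 higher at 12 h (SE 0.32, adjusted p = 0.000264) and was called at 4 times. Ptpn6, the phosphatase SHP-1, was 1.46 higher, Stat3 1.12 and the kinase gene Tyk2 1.08, all at 12 h, of which Tyk2 was lost without the experiment as a term (adjusted p = 0.0918). Jak2, the kinase bound to the common beta subunit, was picked here after its values were seen. Its signal was 4592, 4845, 5574, 7949.9, 7096 and 3220 in time order from 0 to 24 h in experiment 1 and 2411, 2126, 2934, 4042, 3958 and 1542 in experiment 2, and it was higher at 6 h (0.77, adjusted p = 0.0139) and 12 h (0.67, adjusted p = 0.00806) and lower at 24 h (-0.57, adjusted p = 0.0168). The 24 h call was lost with centred arrays (-0.45, adjusted p = 0.0763), and all 3 were lost without the experiment as a term (adjusted p 0.513 to 0.705). In both experiments 6 h was the highest and 24 h the lowest. Stat5a and Stat5b, the STAT genes best known downstream of GM-CSF, were not called at any time against 0 h, with 0.69 and 0.15 at 12 h, and neither was their target Cish (0.68 at 12 h).

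Of 21 adaptor and kinase genes of the RAS, PI3K and SRC family tested, 7 were higher and 4 lower at 12 h, and 6 and 5 at 24 h. The docking protein genes went apart, as Dok1 was 1.86 higher while Dok2 fell by 2.25 at 12 h (adjusted p = 0.000164 and 0.000173). Dok2 read 1037 and 949 at 12 h in experiments 1 and 2, against 4887 and 4673 at 0 h. Grb2, the adaptor that links receptors to RAS, was 1.48 higher at 24 h, and Fcer1g, a signalling chain of Fc receptors, 0.68 higher, the second of which was lost without the experiment as a term (adjusted p = 0.288).

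Of 12 genes for receptor ubiquitination and shedding, 0 were higher and 1 lower at 12 h, and 1 was higher and 2 lower at 24 h. With the arrays centred on their medians it was 1 higher and 0 lower at 12 h and 1 and 1 at 24 h. The lower ones at 24 h were both sheddases. Adam17, the protease known to release the outer part of the M-CSF receptor, read 3612 and 3072 at 24 h in experiments 1 and 2, against 5109 and 5505 at 0 h, a difference of -0.67 (SE 0.15, adjusted p = 0.00906) that was lost with centred arrays (-0.54, adjusted p = 0.0645). Adam10 read 2726 and 1268, against 5235 and 5116, a difference of -1.47 (SE 0.24, adjusted p = 0.00184). Hgs, an endosomal sorting gene, was 0.67 higher at 24 h, and not without the experiment as a term (adjusted p = 0.129). Rhbdf2, a partner of Adam17, was not called and had 0.66 at 6 h (adjusted p = 0.0669).

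Of 19 transcription factors of myeloid receptor genes tested, 3 were higher and 3 lower at 12 h, and 1 was higher and 4 lower at 24 h. The 24 h balance turned with the arrays centred on their medians, to 4 higher and 2 lower, and without the experiment as a term it was 0 and 2. Cebpd fell by 1.98 at 24 h (SE 0.23, adjusted p = 0.000271), and Cebpa fell by 1.72 at 12 h (SE 0.41, adjusted p = 0.0115). Both encode C/EBP factors of myeloid differentiation. The ETS family gene Fli1 fell by 1.18 at 12 h, and Irf4, a factor of DC differentiation, fell by 1.76 at 24 h. Of these 4, Fli1 was lost without the experiment as a term (adjusted p = 0.0771). Cebpa read 785 and 847 at 12 h against 2704 and 2752 at 0 h in experiments 1 and 2, but 3233 in experiment 1 and 1198 in experiment 2 at 24 h.

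**Figure D5:**
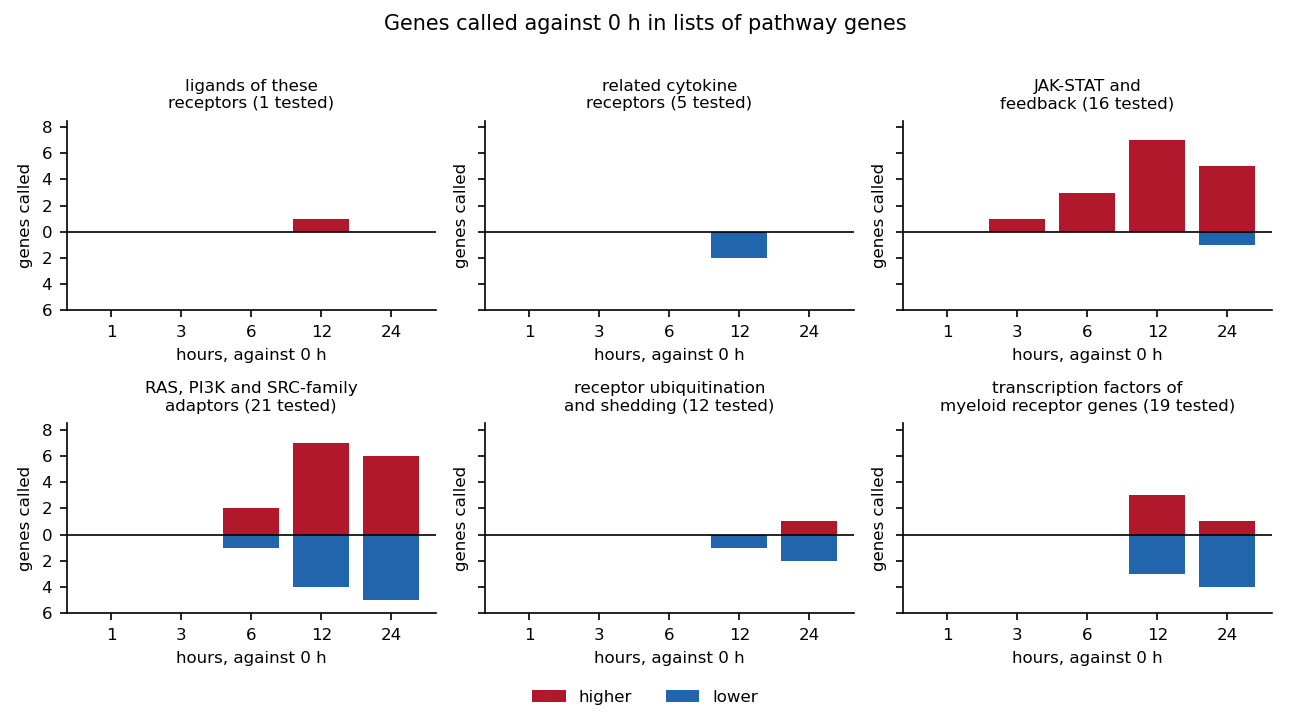
Number of genes called higher (bars above 0) and lower (bars below 0) at 1, 3, 6, 12 and 24 h against 0 h in 6 lists of pathway genes, by limma on 12 arrays, adjusted p under 0.05, with the number of genes tested above each panel. The JAK-STAT list has 7 genes higher and 0 lower at 12 h, and the adaptor list 7 higher and 4 lower.

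Markers of DC and of other cells moved with time in the same arrays. Of 11 DC markers tested, 5 were higher and 1 lower at 12 h and at 24 h, with Cd40 5.29 and Ccr7 3.36 higher at 12 h and Cd86 3.40 higher at 24 h, while Clec4a2 fell by 1.27 at 24 h. Ccr7 and Clec4a2 were lost without the experiment as a term (adjusted p = 0.179 and 0.0934). The summed signal of the list was 148053 and 157079 at 24 h in experiments 1 and 2, against 119617 and 96914 at 0 h. Of 14 macrophage and monocyte markers tested, Csf1r among them, the 12 h count was 4 higher with 2 lower, and by 24 h it was 3 with 6. Fcgr1 was 2.71 higher at 24 h and Mertk 2.17 higher at 12 h, while at 24 h Ccr2 fell by 3.90 and Mrc1 fell by 2.92. Without Csf1r, the sum of that list was 93658 and 100439 at 24 h, against 73642 and 77427 at 0 h. Of 5 plasmacytoid DC markers, 2 were higher at 12 h (Bst2 and Tcf4) and 1 at 24 h (Bst2, by 3.75), and of 2 progenitor markers tested 1 was lower at 12 h (Sox4, which fell by 3.30). Siglecf alone was tested of the mast cell, basophil and eosinophil markers and fell by 1.00 at 24 h, and Pax5, the B cell marker tested, was not called. Tcf4 and Siglecf were lost without the experiment as a term (adjusted p = 0.0990 and 0.131). The part of these shifts in the signals of the growth factor receptors was not tested.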

How the data were processed

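Transcripts were measured on Affymetrix Mouse 430 2.0 arrays, 12 in all, 2 per time. The authors computed the intensity of each probe set in MAS5.0 and scaled every array to a mean of 500, leaving out its top and bottom 2%. Values are linear. Precision is limited by how few arrays there are. Of 45101 probe sets, 64 controls were left out. Of the other 45037, 34945 have 1 gene symbol in the platform annotation, 932 several and 9160 none.

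The fit, limma 3.58.1 in R 4.3.3, modelled log2(intensity + 16) by time and experiment on all 12 arrays, with an intensity trend. Probe sets whose mean log2 value reached the median of all entered the test, 22519 in number, with Benjamini-Hochberg adjustment over that whole set. All times share the 0 h arrays. Fold changes on this scale understate those of low signals. The fit was tested on simulated data. Tables were made in Python 3.11.15 with numpy 2.4.6 and pandas 2.3.3, and figures with matplotlib 3.10.9.

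The replicate numbers pair the samples, because the study ran each experiment from 1 mouse. Arrays of the same experiment deviated together: the correlation of their departures from the time means was 0.25 to 0.66 (median 0.57) among 15 pairs of times. The members, lists and markers were chosen with earlier results of these data known. Every probe set of the 7 genes is reported, and from each list up to 4 genes with the smallest p at any time, with defining markers. For a list, each gene is its brightest tested probe set. The lists are the ligands, related receptors, JAK-STAT genes, adaptors, ubiquitination and shedding genes and transcription factors, and markers of DC, macrophages and monocytes, neutrophils, progenitors, plasmacytoid DC, T and NK cells, B cells, and mast cells, basophils and eosinophils. Alternatives were pseudocounts of 1 and 64, no filter, a mean signal of 200, arrays centred on the median, quantile normalization, no trend, no replicate block, only the 4 arrays compared, and each array left out.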

Additional observations from a re-analysis of the deposited data

How the results depend on the processing

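Of the 3 calls, the fall of Csf2ra 1420704_at at 24 h held in 18 of 21 alternatives (log2 -1.32 to -0.89, adjusted p 0.00557 to 0.385), that at 12 h in 9 of 21 (-0.93 to -0.42, adjusted p 0.0208 to 0.595), and the rise of Csf3r at 12 h in 16 of 20 (0.79 to 1.99, adjusted p 0.0129 to 0.241). All kept their direction. With no replicate block, no member was called at 12 h (0 higher, 0 lower), 0 were lower at 24 h and 0 passed the F test, while other pathway genes called were 2 higher with 0 lower (6 h), 6 with 2 (12 h) and 5 with 6 (24 h). Of all 22519 probe sets, that fit called 1061 higher and 1906 lower at 12 h and 1635 lower at 24 h. The F test passed 2293. With no filter it was 0 higher and 0 lower at 12 h and 1 by the F test (all probe sets: 1881, 3449 and 5347 of 45037). With a mean of 200 or more it was 1 higher at 6 h, 0 higher at 12 h, where Csf3r was not tested, and 1 higher at 24 h. Of all 15607 probe sets of that filter, 851, 2003 and 2047 were higher at these times. Centring on the median gave 0 lower at 12 h, 1 higher at 24 h and 1 by the F test (all probe sets: 3107, 2380 and 5446 of 22519). It also gave 0 other pathway genes lower at 6 h and 6 at 24 h. Quantile normalization gave 2 higher at 6 h, 2 higher with 0 lower at 12 h, and 1 higher at 24 h. Of all 22519 probe sets it gave 953 higher, 2355 higher with 3186 lower, and 2409 higher at these times. No trend gave 1 by the F test (all probe sets: 5172 of 22519). With only the 4 arrays compared it was 1 higher at 3 h, 2 higher at 6 h and 0 lower at 24 h (all probe sets: 1010, 1515 and 1520 of 22519). Leaving out an array moved the member counts at 6, 12 and 24 h, between 24 h and 12 h, and by the F test. Each such fit has 1 array at the time of the array left out. The causes were not tested. Centring moved the median log2 change of all genes at 24 h by 0.13, and the share of all calls that were higher was then 47.0% in place of 34.6% at 24 h and 77.6% in place of 65.4% at 6 h. The fits of named list genes and the counts of signs and of arrays outside those of 0 h under other scalings were added after seeing the data. The other pathway genes were not refitted with arrays left out. Csf3r and Flt3 lie near the low end of the signals, where 16 added to the intensity weighs most.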
